A study of Mus musculus with 38 samples.

Results

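Adrenomedullin and plasminogen system genes were followed in mouse T helper 17 (Th17) cells through 5 members, Adm, Ramp1, Ramp3, Plaur and Plau, out of 31053 gene symbols counted. They were chosen by symbol with their dexamethasone responses and their levels in recovered cells already known, so Dex responses and differences between tissues are given as a description without a test. Genotype comparisons in recovered cells are read from the edgeR fit over all genes, but since the members' levels in those same libraries were known when they were chosen, their p-values are not independent evidence. All 5 symbols were found in each of the 4 count tables.

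Each library measured polyadenylated RNA of 2000 sorted cells, counted per gene. The cultured libraries came from naive T cells of C57/B6 mice differentiated in vitro into inflammatory Th17 cells, called Th17Inf in the labels. They form 4 groups of 4 libraries, namely IL-23R KO with dexamethasone (Dex, a synthetic glucocorticoid) for 2 days, IL-23R KO without Dex as control, WT with Dex, and WT without Dex. IL-23R is the receptor of the cytokine interleukin-23. The recovered libraries came from mice with experimental autoimmune encephalomyelitis (EAE), from sorted T cells that carry 2D2, a T cell receptor for a myelin protein, after culture as Th17Inf cells, transfer into WT recipients and recovery at peak disease. Libraries of central nervous system (CNS) cells carried the labels CHD1 cKO (n = 4) or CHD1 WT (n = 3), and those of the draining lymph node (dLN) CHD1 cKO (n = 4) or CHD1 WT (n = 3). A separate table held CNS cells labelled glucocorticoid receptor (GR) cKO (n = 4) or GR WT (n = 4). CHD1 is a chromatin remodelling enzyme. All animals were on the C57/B6 background, and the Cre driver behind each cKO is not given in the sources used here. Whether replicates came from separate animals or cultures is not stated, so a p-value reflects the spread between libraries, which may be technical.

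Adrenomedullin, the peptide encoded by Adm, widens blood vessels and tightens endothelial barriers. It acts through the calcitonin receptor-like receptor (Calcrl), which binds adrenomedullin when paired with the accessory proteins RAMP2 or RAMP3 and binds calcitonin gene-related peptide when paired with RAMP1. In the plasminogen system, urokinase (Plau) bound to its receptor uPAR (Plaur) converts plasminogen into plasmin at the cell surface. uPAR is known for its roles in the adhesion and migration of leukocytes.

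The 250 bases upstream of the RefSeq start (GRCm38.p6, the RefSeq release of mm10) are shown for the 3 members with the largest Dex responses, because the searched motif matches lie in them. All lie on the plus strand, at chr7:110627407-110627656 for Adm, chr11:6658283-6658532 for Ramp3 and chr7:24462233-24462482 for Plaur. Capitals mark matches.
Adm: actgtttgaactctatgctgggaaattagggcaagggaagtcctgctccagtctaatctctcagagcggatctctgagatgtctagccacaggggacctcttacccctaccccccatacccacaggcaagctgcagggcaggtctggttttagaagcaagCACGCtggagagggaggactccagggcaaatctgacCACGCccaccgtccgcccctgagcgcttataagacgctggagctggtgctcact
Ramp3: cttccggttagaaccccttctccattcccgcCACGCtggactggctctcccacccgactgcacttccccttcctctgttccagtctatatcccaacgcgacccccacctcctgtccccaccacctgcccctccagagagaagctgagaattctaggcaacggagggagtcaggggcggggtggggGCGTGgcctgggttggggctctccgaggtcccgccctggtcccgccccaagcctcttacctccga
Plaur: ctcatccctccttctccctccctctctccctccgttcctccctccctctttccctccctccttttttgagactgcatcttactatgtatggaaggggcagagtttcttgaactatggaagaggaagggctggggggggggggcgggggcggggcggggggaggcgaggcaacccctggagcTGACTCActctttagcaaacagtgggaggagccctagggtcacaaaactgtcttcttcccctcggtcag

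The capitals in Adm and Ramp3 are matches of GCGTG, a core of hypoxia response elements, read as CACGC where the match is on the minus strand. In Adm they begin 90 and 54 bases before the start, and in Ramp3 219 and 65 bases before it. The capitals in Plaur are TGACTCA, a match of the AP-1 motif TGANTCA that begins 69 bases before the start. On both strands, GCGTG occurred in 28.2% and TGANTCA in 6.75% of the 32851 RefSeq promoter windows of the same length, so a GCGTG match is common. The matches shown do not overlap. The glucocorticoid response element, AGAACA and TGTTCT spaced by 3 bases (0.00913% of windows), its hexamer AGAACA (16.1%), the hypoxia core ACGTG (16.6%) and an NF-kB motif, GGGA and TTTCC spaced by 1 base (0.356%), had no match in any of the 4 member windows, and the window of Ramp1 had no match of any motif searched. Plau has no entry in the promoter table. These are matches of letters, not measured binding.

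Total counts per library lay between 3320586 and 4732419 for cultured cells, between 4911109 and 6262849 for CHD1 CNS cells, between 3148634 and 5158450 for CHD1 dLN cells, and between 6281769 and 9159671 for GR CNS cells. Levels are in CPM, counts scaled to a library total of 1000000, and log2 fold changes with their standard error (SE) come from the TMM-scaled edgeR fit. The IL-23R KO libraries with Dex stood apart from the other 12 in vitro libraries. Features annotated as repeats or ribosomal RNA made up 31.4 to 38.4% of their counts, against 14.3 to 26.2% in the others, and mitochondrial genes took 0.359 to 0.447%, against 1.46 to 2.26%. Their summed CPM of 12 T cell markers was 2132 to 2615, against 3986 to 4567 in the KO controls, with all 12 markers counted in both. These properties cannot be told apart from the group. In the recovered libraries the same T cell markers summed to 18480 to 42523 CPM in CHD1 cKO CNS, 27444 to 40381 in CHD1 WT CNS, 7863 to 17102 in CHD1 cKO dLN, 19089 to 22475 in CHD1 WT dLN, 16447 to 23642 in GR cKO and 22267 to 32345 in GR WT. On the CPM scale the median tested gene was 0.45 lower (log2) in KO with Dex than in KO control and 0.31 lower than in WT with Dex, and the fitted changes are relative to that shift. In the CNS-to-dLN comparisons below the same median was 0.35 (CHD1 WT) and 0.59 (CHD1 cKO), in the CHD1 CNS genotype comparison 0.15 and in the GR comparison -0.10. Il23r lay between 1.12 and 2.11 CPM in KO with Dex, against 5.57 to 16.6 CPM in WT with Dex, and between 2.25 and 6.22 CPM in KO control, against 6.33 to 8.66 CPM in WT control. Nr3c1, the gene of GR, lay between 5.25 and 5.68 CPM in GR cKO, against 11.1 to 18.0 CPM in GR WT. Chd1 did not separate the libraries labelled CHD1 cKO (3.56 to 6.87 CPM in CNS) from those labelled CHD1 WT (4.24 to 6.14 CPM), nor in dLN (2.28 to 6.04 against 4.27 to 5.47 CPM), so the CHD1 genotypes rest on the labels.

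In cultured cells Dex went with far more Adm, Ramp3 and Plaur messenger RNA in IL-23R KO cells, with a smaller increase of Ramp3 and Plaur in WT cells, and with Adm no higher than in controls in WT cells. Calcrl, the receptor that Ramp1 and Ramp3 accompany, fell in both genotypes. Plau was at or near 0 counts throughout. With bulk libraries, more cells that transcribe a gene and more RNA per cell cannot be told apart.

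Adm (ENSMUSG00000030790.15, mm10 chromosome 7, 110627661 to 110629820, plus strand) is the ligand. It had 80.9, 93.7, 95.4 and 106 CPM in the KO libraries with Dex (361, 311, 417 and 489 counts), against 5.94, 3.46, 3.37 and 4.94 CPM in KO controls. All 4 Dex libraries lay far above all 4 controls, and no other in vitro library exceeded 7.34 CPM. In WT cells it had 3.24, 4.15, 3.86 and 5.51 CPM with Dex, against 7.01, 5.71, 7.34 and 5.40 CPM without. Here the groups overlapped by 1 library on each side and the Dex libraries were mostly the lower ones. The log2 fold change with Dex was 4.86 ± 0.16 in KO cells and -0.49 ± 0.20 in WT cells (fit estimate ± SE), a difference between the genotypes of 5.35 ± 0.27 in the KO direction. Of all 10813 genes tested, 25 had a difference at least this large in either direction counting Adm itself. Since Adm was chosen with this response known, that place is a description and not evidence. An opposite-strand gene, Gm28863, overlaps Adm without sharing exon bases and had 4 counts in all 38 libraries.

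**Figure D1:**
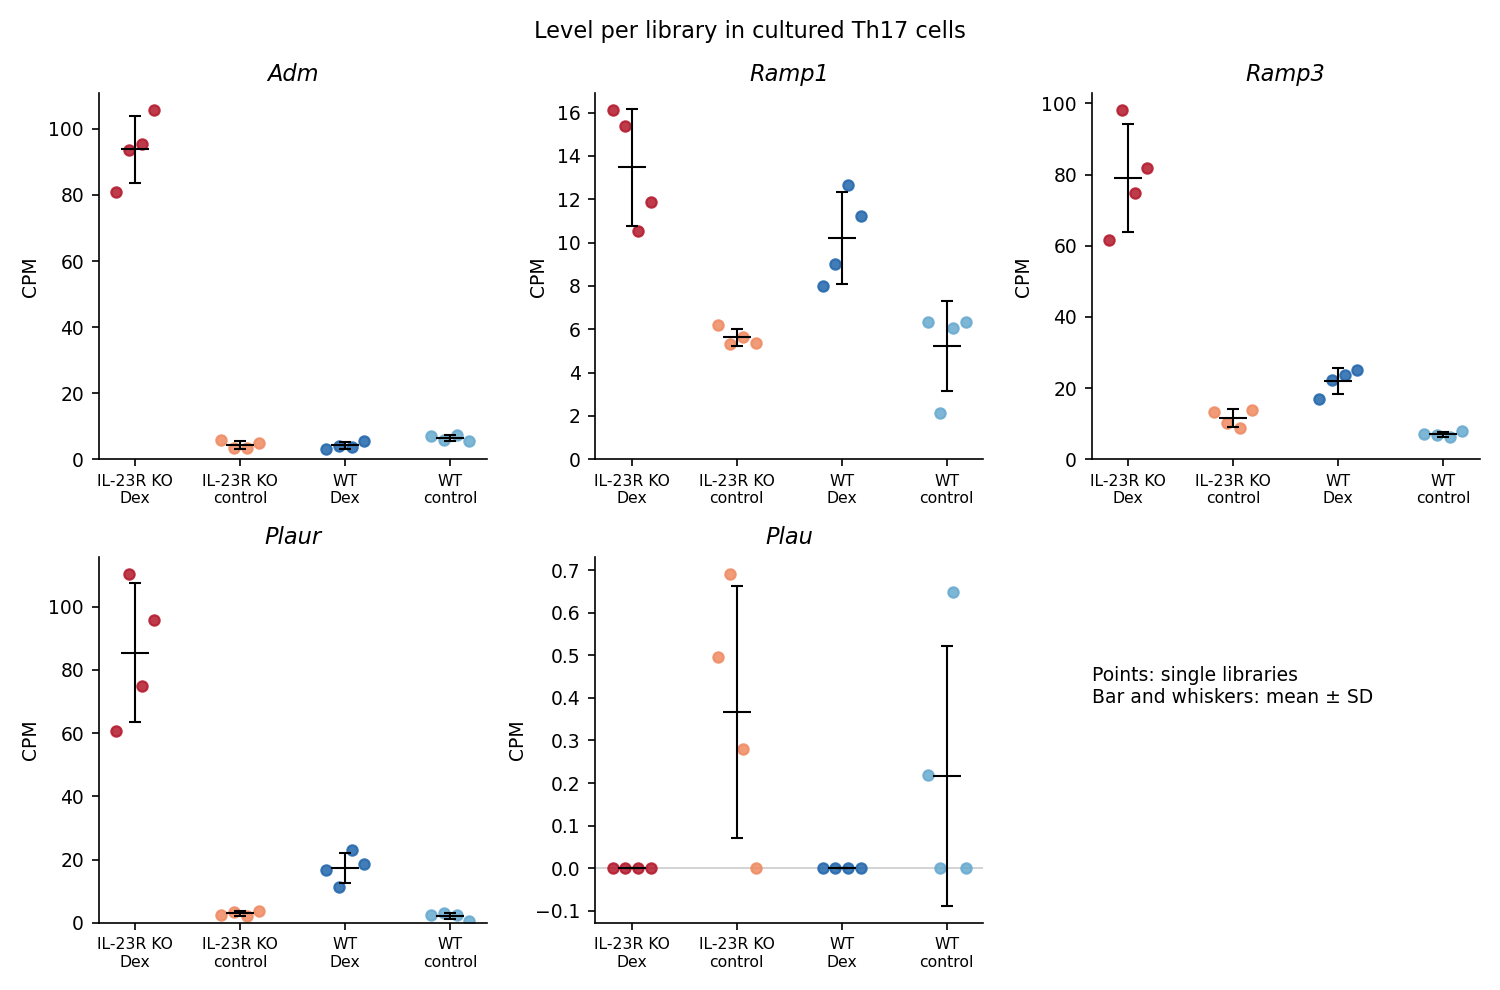
Level of each member in every cultured library, in CPM on a linear axis that differs between panels. Points are libraries and bars are the mean ± SD of the 4 libraries of a group. Adm is high in IL-23R KO cells with Dex alone (80.9 to 106 CPM), Ramp3 and Plaur are highest there and intermediate in WT cells with Dex, and Plau stays under 1 CPM.

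Ramp3 (ENSMUSG00000041046.7, chromosome 11, 6658521 to 6677475, plus strand) encodes the accessory protein of an adrenomedullin receptor. It had 61.6, 98.2, 74.8 and 81.8 CPM in KO with Dex, against 13.4, 10.1, 8.71 and 13.9 CPM in KO control. WT cells with Dex had 16.8, 22.1, 23.6 and 25.1 CPM, against 7.01, 6.76, 6.26 and 7.98 CPM in WT control. KO with Dex lay above WT with Dex, WT with Dex above KO control and KO control above WT control, and no neighbouring groups in that order overlapped. With Dex the log2 fold change was 3.22 ± 0.15 in KO cells and 1.76 ± 0.17 in WT cells, a difference of 1.46 ± 0.24. Without Dex, Ramp3 was 0.68 ± 0.19 higher (log2) in KO than in WT cells, the only member whose genotypes did not overlap without Dex. Ramp3 shares 101 exon bases with Gm11978 on the opposite strand, a gene that is not among the counted symbols. The library preparation named in the labels does not mark strand, so Ramp3 counts may include Gm11978 reads from that stretch.

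Ramp1 (ENSMUSG00000034353.14, chromosome 1, 91179822 to 91225196, plus strand) encodes the accessory protein of the calcitonin gene-related peptide receptor. It had 16.1, 15.4, 10.5 and 11.9 CPM in KO with Dex, against 6.19, 5.30, 5.62 and 5.39 CPM in KO control, and 7.98, 9.0, 12.6 and 11.2 CPM in WT with Dex, against 6.35, 2.11, 6.05 and 6.33 CPM in WT control. Dex libraries lay above control libraries in both genotypes, and with Dex the genotypes overlapped. On the log2 scale the change was 1.72 ± 0.27 in KO cells and 1.10 ± 0.27 in WT cells. The difference, 0.62 ± 0.38, was the smallest among the 4 members in the fit.

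Plaur (ENSMUSG00000046223.10, chromosome 7, 24462484 to 24475968, plus strand) encodes uPAR. It had 60.7, 110.2, 74.8 and 95.9 CPM in KO with Dex, against 2.48, 3.46, 2.25 and 3.82 CPM in KO control. WT cells had 16.8, 11.3, 22.9 and 18.5 CPM with Dex, against 2.41, 3.17, 2.38 and 0.704 CPM in control. The 2 control groups overlapped, WT with Dex lay above both, and KO with Dex lay above all. Dex libraries differed from controls by 5.25 ± 0.27 (log2) in KO cells and 3.09 ± 0.31 in WT cells, a difference of 2.16 ± 0.49.

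Plau (ENSMUSG00000021822.3, chromosome 14, 20836660 to 20843385, plus strand), the gene of urokinase itself, had 0 counts in all 4 KO libraries with Dex and all 4 WT libraries with Dex. A count of 0 allows up to 0.179 CPM over the KO Dex group and 0.165 CPM over the WT Dex group (3 counts over the group, counting error only). KO controls held 2, 3, 1 and 0 counts and WT controls 1, 0, 3 and 0. It did not pass the filter on low counts in vitro, and no fold change is given.

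Counted in the fit, 4 of the 5 members were higher with Dex in KO cells with groups that did not overlap. This is a description of members chosen for it, and 10.9% of all tested genes were higher without overlap in that comparison. In WT cells 3 of 4 were, against 4.23% of all tested genes. KO libraries with Dex lay above WT libraries with Dex for 3 of 4 (10.3% of all tested genes), and KO controls above WT controls for 1 of 4 (3.26%). The shares of all tested genes called by edgeR at an adjusted p under 0.05 were 54.7% with Dex in KO cells, 8.08% with Dex in WT cells, 32.2% for the difference between these responses, 45.9% for KO against WT with Dex and 0.684% without Dex. These comparisons share control and Dex libraries.

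Per kilobase of exon, which allows genes to be set side by side, Adm and Ramp3 did not differ beyond their spread in KO cells with Dex (58.0 ± 6.26 and 57.3 ± 11.0 CPM per kb, SD, n = 4). Plaur stood at 32.6 ± 8.39 and Ramp1 at 4.46 ± 0.894 CPM per kb. In WT cells with Dex the order was Ramp3 (15.9 ± 2.61 CPM per kb), Plaur (6.65 ± 1.84), Ramp1 (3.38 ± 0.699) and Adm (2.59 ± 0.592), with Ramp1 and Adm within their spread. In WT controls Ramp3 (5.07 ± 0.521 CPM per kb) and Adm (3.93 ± 0.592) came before Ramp1 (1.72 ± 0.685) and Plaur (0.827 ± 0.398).

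The rest of the adrenomedullin and calcitonin receptor list was mostly silent in cultured cells, and its main receptor gene went the other way from the members. Of 12 genes, 4 averaged at least 1 CPM in some in vitro group and 3 were tested (Calcrl, Crcp and Pam). Calcrl averaged 5.41 ± 1.38 CPM in KO with Dex and 31.7 ± 4.62 CPM in KO control, and 10.1 ± 3.33 CPM in WT with Dex and 29.8 ± 5.61 CPM in WT control (SD, n = 4 each). It fell by 2.09 ± 0.21 (log2) in KO cells (edgeR adjusted p = 4.18e-07) and by 1.45 ± 0.19 in WT cells (edgeR adjusted p = 1.66e-04). The difference between these falls, -0.64 ± 0.29, did not pass the test (edgeR adjusted p = 0.105). Pam, the enzyme that amidates adrenomedullin and other peptides into their active form, rose in KO cells by 1.25 ± 0.41 (edgeR adjusted p = 0.0173). That call was lost without KO Dex library 6 (adjusted p = 0.0959) or KO control library 5 (adjusted p = 0.0502). Ramp2, the other accessory protein for adrenomedullin, had 0 counts in 3 of the 4 in vitro groups and 5 counts in KO control, and Ackr3, a scavenger receptor that binds adrenomedullin, had none. In WT cells 0 of the 3 tested list genes were called higher and 1 lower, in KO cells 1 higher and 1 lower. Of all tested genes, 8.08% were called in WT cells and 54.7% in KO cells.

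Among the tested genes of the plasminogen activation list, Serpine2 was called and St14, a membrane serine protease, was not. Serpine2, which encodes a serpin that inhibits serine proteases including urokinase and thrombin, averaged 16.7 ± 5.53 CPM in KO with Dex and 69.3 ± 21.8 CPM in KO control. It fell by 1.58 ± 0.26 in KO cells (edgeR adjusted p = 6.14e-05), with a WT value of -0.59 ± 0.25 (adjusted p = 0.171). Their difference, -0.99 ± 0.36, passed narrowly (adjusted p = 0.0431) and was lost without any one of 12 of the 16 libraries, at adjusted p from 0.0580 to 0.0924. Plg, which encodes plasminogen, had 0 counts in all 38 libraries. Plat, the other plasminogen activator, had at most 2 counts and Serpinb2, the inhibitor PAI-2, at most 6 in any in vitro group. Of the 11 list genes 2 were tested, with 0 higher and 1 lower in KO cells and 0 called in WT cells (edgeR, with 1 tested gene at an unadjusted p under 0.05 and 0 called by DESeq2). Over all tested genes edgeR called 54.7% in KO cells and 8.08% in WT cells.

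**Figure D2:**
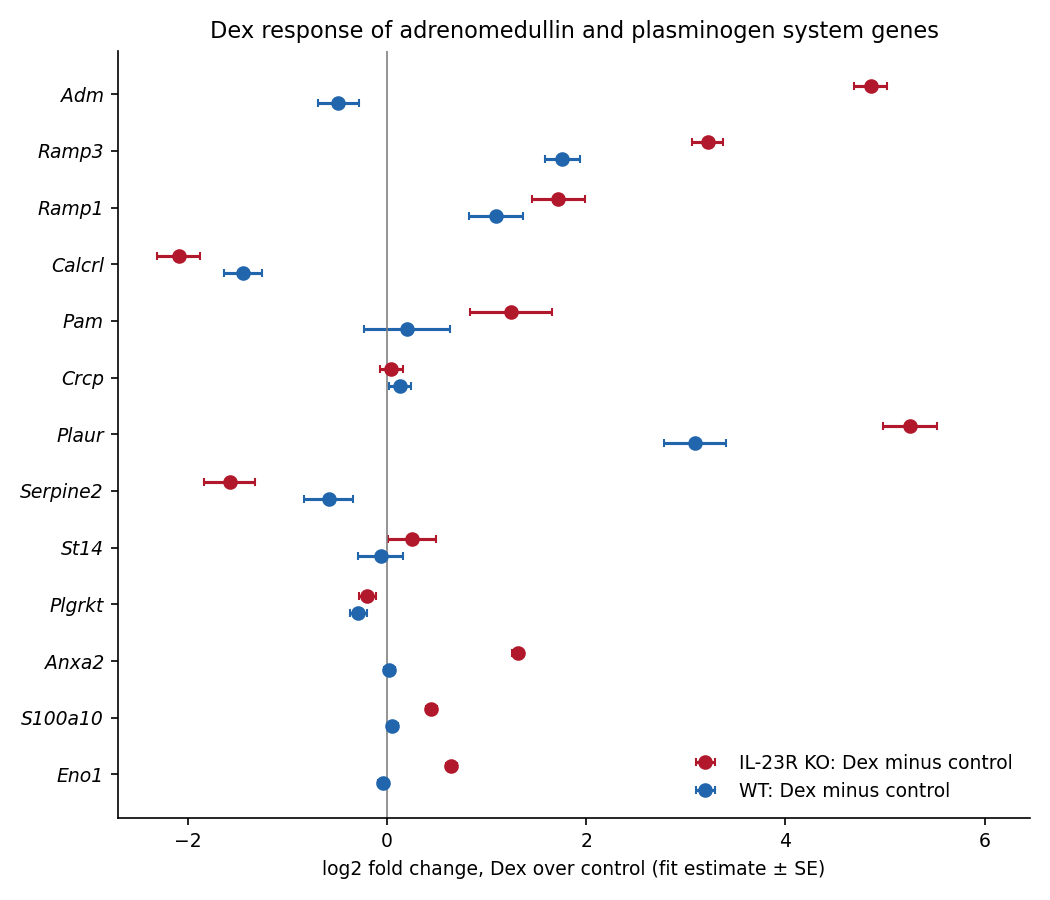
Log2 fold change with Dex in IL-23R KO cells and in WT cells for the 4 tested members and for the tested genes of the 3 lists of receptors, activators and plasminogen receptors. Points are fit estimates and bars are SE from 16 libraries. Adm responds in KO cells (4.86) with a value under 0 in WT cells (-0.49), Plaur and Ramp3 respond in both, and Calcrl is lower in both.

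Messenger RNA of Anxa2, S100a10 and Eno1, from the list of plasminogen receptors, was abundant in all cultured groups. Of the 5 genes of that list, 4 averaged at least 1 CPM in some cultured group. Anxa2 and S100a10, which form a plasminogen-binding heterotetramer, and Eno1, a glycolytic enzyme that also binds plasminogen at the cell surface, were called higher with Dex in KO cells, 3 of the 4 tested genes of the list (54.7% of all tested genes were called in that comparison), and none of the 4 passed in WT cells (edgeR; 1 at an unadjusted p under 0.05 and 1 called by DESeq2). Anxa2 averaged 2165 ± 219 CPM in KO with Dex and 1195 ± 42.9 CPM in KO control, a log2 rise of 1.31 ± 0.05 (edgeR adjusted p = 2.71e-11). Eno1 was 0.65 ± 0.05 higher relative to the scaled median (edgeR adjusted p = 3.91e-08), but its groups overlapped in CPM. It averaged 2640 ± 235 CPM in KO with Dex and 2324 ± 149 CPM in KO control, an unscaled log2 ratio of 0.18. S100a10 was 0.44 ± 0.06 higher relative to the scaled median (adjusted p = 4.59e-06), but its CPM did not differ beyond their spread, 896 ± 75.3 in KO with Dex and 909 ± 107 in KO control, and its unscaled log2 ratio was -0.02, against -0.06 in WT cells (993 ± 66.5 CPM with Dex and 1037 ± 24.6 CPM in control). Its called difference between the responses, 0.39 in the fit, was 0.04 without scaling. Plgrkt, a receptor of plasminogen on the cell surface, gave -0.20 ± 0.09 in KO cells (adjusted p = 0.0719) and -0.29 ± 0.09 in WT cells (adjusted p = 0.0506).

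Of the partners of uPAR, 2 of 9 tested genes were called higher and 1 lower with Dex in KO cells, a smaller share than the 54.7% of all tested genes called there. Lrp1, an endocytic receptor that takes up uPAR complexes from the cell surface, rose by 3.75 ± 0.40 (edgeR adjusted p = 6.35e-07), at 16.1 ± 3.83 CPM in KO with Dex and 1.67 ± 1.25 CPM in KO control. The integrin chain Itgav, part of the vitronectin receptor, rose by 1.35 ± 0.17 (adjusted p = 5.20e-06). Egfr, which signals together with uPAR in other cells, fell by 3.23 ± 0.68 (adjusted p = 6.61e-04), with 8 counts over the 4 KO libraries with Dex and 108 over the KO controls. For each of these 3 genes the responses differed between the genotypes, by 2.59 ± 0.58 (Lrp1, edgeR adjusted p = 0.00256), 1.92 ± 0.25 (Itgav, 2.84e-05) and -2.77 ± 0.81 (Egfr, 0.0147). In WT cells edgeR called 0 of the 9, with 4 at an unadjusted p under 0.05. DESeq2 called 2 there, Lrp1 (edgeR 1.16 ± 0.38, adjusted p = 0.0768) and Itgav (-0.57 ± 0.18, adjusted p = 0.0659).

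Hypoxia-inducible and glucocorticoid-inducible genes are described beside the members as background, since Adm is known as a target of hypoxia-inducible factor and Dex is a glucocorticoid. The part of either pathway in the responses of the members was not tested. Of 25 tested hypoxia-inducible genes, 23 were called higher and 0 lower with Dex in KO cells (median log2 fold change 1.43, against 0.01 over all tested genes), while 2 were higher and 2 lower in WT cells (median 0.12, against 0.01). In KO cells the smallest p-values belonged to Ndrg1 (3.03 ± 0.16, edgeR adjusted p = 2.76e-10), Higd1a (1.43 ± 0.08, 4.00e-10) and P4ha1 (1.76 ± 0.10, 5.08e-10). In WT cells Ndrg1 was 0.64 ± 0.15 higher (adjusted p = 0.0144) and Bhlhe40 was lower (-0.25 ± 0.06, 0.0144), while Ddit4 was higher (0.65 ± 0.17, 0.0256). Among 15 tested glucocorticoid-inducible genes, 10 were called higher in KO cells (median 1.68) and 7 in WT cells (median 0.44), with 0 lower in either. Beside the counts of both lists, edgeR called 54.7% of all tested genes with Dex in KO cells and 8.08% in WT cells. Txnip rose by 2.85 ± 0.15 in KO cells (edgeR adjusted p = 2.67e-10) and by 1.28 ± 0.15 in WT cells (3.99e-05). The metallothionein gene Mt1 rose by 2.21 ± 0.09 in KO cells (edgeR adjusted p = 1.30e-11), and the kinase gene Sgk1 rose by 1.65 ± 0.18 in WT cells (2.90e-05). Ddit4 is in both lists. The unscaled CPM ratio was under 0 in KO cells for Ldha (-0.09) and Nfkbia (-0.00426), whose fitted values were above 0.

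The tested genes whose profiles over the 16 in vitro libraries lay closest to each member were found from the root mean square difference of centred log2 CPM. For Adm they were Dntt (0.73), Gipr (0.76), Arrdc3 (0.77), Stc1 (0.77) and Lpar3 (0.78), against a median of 2.02 over all candidate genes. For Ramp3 they were Pik3cg (0.43), Tsc22d3 (0.45), Ndrg1 (0.47), Gramd4 (0.47) and Tmem71 (0.52), against a median of 1.5. For Plaur they were Isg20 (0.67), Tgfb3 (0.71), Irgc1 (0.80), Il23a (0.81) and Neb (0.89), against a median of 2.26. For Ramp1, where the profile is flatter, the 5 nearest lay between 0.325 and 0.333 (Galnt11, Mtmr3, Cdh23, Ddit4 and Prnp), against a median of 0.87. All points share the same 16 libraries in 4 groups, so these values describe likeness and are not a test.

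The next question was how the members stood in Th17 cells recovered from diseased mice. Adm was close to 0 there, Ramp1, Ramp3 and Plaur were counted in every library, and Plau, at or near 0 in culture, was counted in every CNS library. Adm had 0, 1, 6 and 0 counts in CHD1 cKO CNS libraries and 0, 1 and 1 in CHD1 WT CNS libraries. It had 1 count in all 4 CHD1 cKO dLN libraries and none in the 3 CHD1 WT dLN libraries (allowing up to 0.253 CPM over that group), and 2 counts in GR cKO and 1 in GR WT. Adm passed the filter in none of these tables.

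Ramp1 had 21.8, 11.5, 32.2 and 13.4 CPM in CHD1 cKO CNS cells, against 51.8, 19.7 and 14 CPM in CHD1 WT CNS cells, and the groups overlapped. Its log2 fold change was -0.67 ± 0.46 (edgeR adjusted p = 0.594), and without WT library 1, the highest, it was 0.055. In dLN cells it had 14, 22.0, 8.69 and 8.34 CPM in CHD1 cKO, against 11.4, 9.53 and 8.33 CPM in WT (0.47 ± 0.26, adjusted p = 0.352). In GR cKO CNS cells it had 13.6, 11.1, 29.9 and 24.8 CPM, against 26.9, 23.2, 22.0 and 11.9 CPM in GR WT (0.04 ± 0.35, adjusted p = 0.980). None of these differences exceeded the spread between libraries.

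Ramp3 had 8.96, 20.4, 13.9 and 9.10 CPM in CHD1 cKO CNS cells, against 4.09, 7.81 and 2.58 CPM in CHD1 WT CNS cells. All 4 cKO libraries lay above all 3 WT libraries, which was the case for 11.9% of all tested genes. The log2 fold change of 1.3 ± 0.39 did not pass the test (edgeR adjusted p = 0.269). The 7 B cell markers separated the same groups, with sums of 83.5 to 121 CPM in cKO (7 of 7 counted), against 37.6 to 65.8 CPM in WT (6 of 7 counted, Pax5 at 0). The 22 myeloid markers, all counted in both, summed to 5922 to 12285 CPM in cKO, against 5272 to 7931 CPM in WT. The part of either cell type in the Ramp3 values was not tested. In dLN cells Ramp3 had 19.3, 3.29, 5.38 and 3.10 CPM in cKO, against 4.97, 4.45 and 3.85 CPM in WT. The groups overlapped and cKO library 1 stood far above the rest. The log2 fold change was 0.83 ± 0.57 (adjusted p = 0.444) and 0.02 without that library. In the GR table it had 3.21, 4.13, 1.06 and 4.14 CPM in cKO, against 1.31, 1.03, 5.38 and 7.58 CPM in WT (-0.19 ± 0.64, adjusted p = 0.941).

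**Figure D3:**
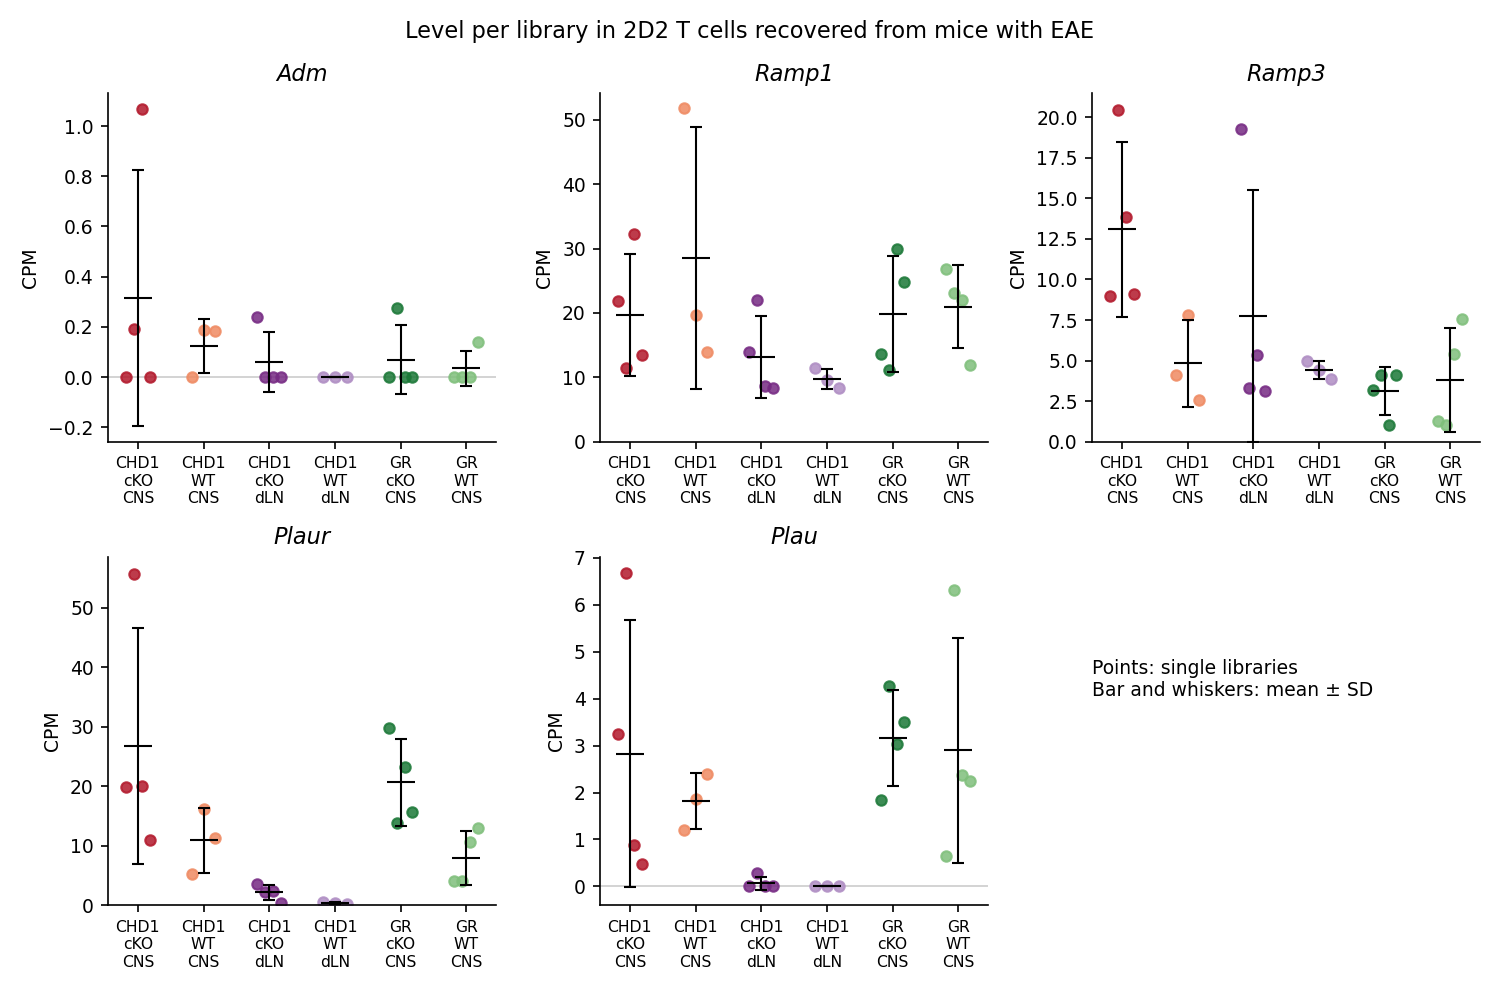
Level of each member in every library of 2D2 cells recovered from the CNS or the dLN, in CPM on a linear axis that differs between panels. Points are libraries and bars are the mean ± SD. Plaur and Plau are counted in the CNS groups and close to 0 in the dLN groups, and all 4 GR cKO libraries lie above all 4 GR WT libraries for Plaur.

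Plaur had 29.8, 13.9, 23.3 and 15.8 CPM in GR cKO CNS libraries 5, 6, 7 and 9, against 4.15, 4.12, 10.6 and 13.1 CPM in GR WT libraries 1 to 4. All 4 cKO libraries lay above all 4 WT libraries, as they did for 1.31% of all tested genes. The log2 fold change of 1.49 ± 0.42 did not pass edgeR (adjusted p = 0.287, and 0.242 to 0.609 with single libraries left out). DESeq2 gave 1.47 with an adjusted p of 0.0425. Plaur levels in these libraries were known when it was chosen, so neither p-value is independent evidence. In this comparison edgeR called 0 of 11148 genes (0%), with 1226 at an unadjusted p under 0.05, and DESeq2 called 122.

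Markers of macrophages and microglia, cells that share the CNS with T cells in EAE, were read in the same libraries. Their summed CPM over 22 genes, all of them counted in both groups, was 16942, 10987, 13331 and 7843 in GR cKO libraries 5, 6, 7 and 9, against 4047, 13385, 9738 and 5945 in GR WT libraries 1 to 4. The groups overlapped for this sum. GR WT library 2 had the second highest sum of the 8 and, with library 1, the lowest Plaur level. The 11 neutrophil markers summed to 33.4 to 65.9 CPM in GR cKO, against 23.3 to 41.1 CPM in GR WT, and these sums overlapped. Of them 9 and 8 were counted, with Ngp and Camp at 0 in both. The marker S100a8 did not overlap, at 2.39 to 18.3 CPM in GR cKO (228 counts) and 0 to 0.873 CPM in GR WT (16 counts). S100a9 had 12 counts in GR cKO and 0 in GR WT. Csf3r overlapped in CPM, with 700 counts in GR cKO and 674 in GR WT. Plaur is known to be abundant in myeloid cells, and the cells were sorted as 2D2 positive. The part of myeloid RNA in the Plaur values was not tested. Fpr1 and Fpr2, formyl peptide receptors known from myeloid cells and listed here as partners of uPAR, gave 2.79 ± 0.66 and 2.39 ± 0.47 in the same comparison (edgeR adjusted p = 0.222 and 0.157), and these were the 2 of 11 tested list genes that DESeq2 called.

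In CHD1 cKO CNS cells Plaur had 20.0, 55.8, 20.1 and 11.0 CPM, against 5.28, 16.2 and 11.3 CPM in CHD1 WT CNS cells. The groups overlapped, and cKO library 2 alone was above 21 CPM. The log2 fold change was 1.12 ± 0.53 (edgeR adjusted p = 0.442), and 0.50 without cKO library 2. The summed myeloid markers were 12285, 10359, 11642 and 5922 CPM in cKO, against 5985, 7931 and 5272 CPM in WT. In 3 of the 4 cKO libraries, library 2 among them, the sum was above every WT sum, and the part of myeloid RNA in the Plaur values was not tested. In this comparison edgeR called 1 of 11157 genes (0.00896%). In dLN cells Plaur had 3.61, 2.20, 2.48 and 0.388 CPM in cKO (15, 8, 12 and 2 counts), against 0.497, 0.318 and 0.214 CPM in WT (2, 1 and 1 counts), too few to be tested. There edgeR called 7 of 9803 genes (0.0714%).

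Plau had 3.26, 6.68, 0.889 and 0.479 CPM in CHD1 cKO CNS cells (16, 35, 5 and 3 counts), against 1.19, 1.86 and 2.40 CPM in CHD1 WT CNS cells. The WT libraries lay inside the cKO range. Its log2 fold change was 0.43 ± 0.77 (edgeR adjusted p = 0.867) and -0.45 without cKO library 2. In the GR table it had 1.83, 4.26, 3.04 and 3.50 CPM in cKO, against 0.655, 6.31, 2.37 and 2.25 CPM in WT (0.24 ± 0.53, adjusted p = 0.906). GR WT library 2, the highest for Plau, was also the WT library with the highest sum of myeloid markers. In dLN cells Plau had 1 count in the 4 cKO libraries and 0 in the 3 WT libraries.

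**Figure D4:**
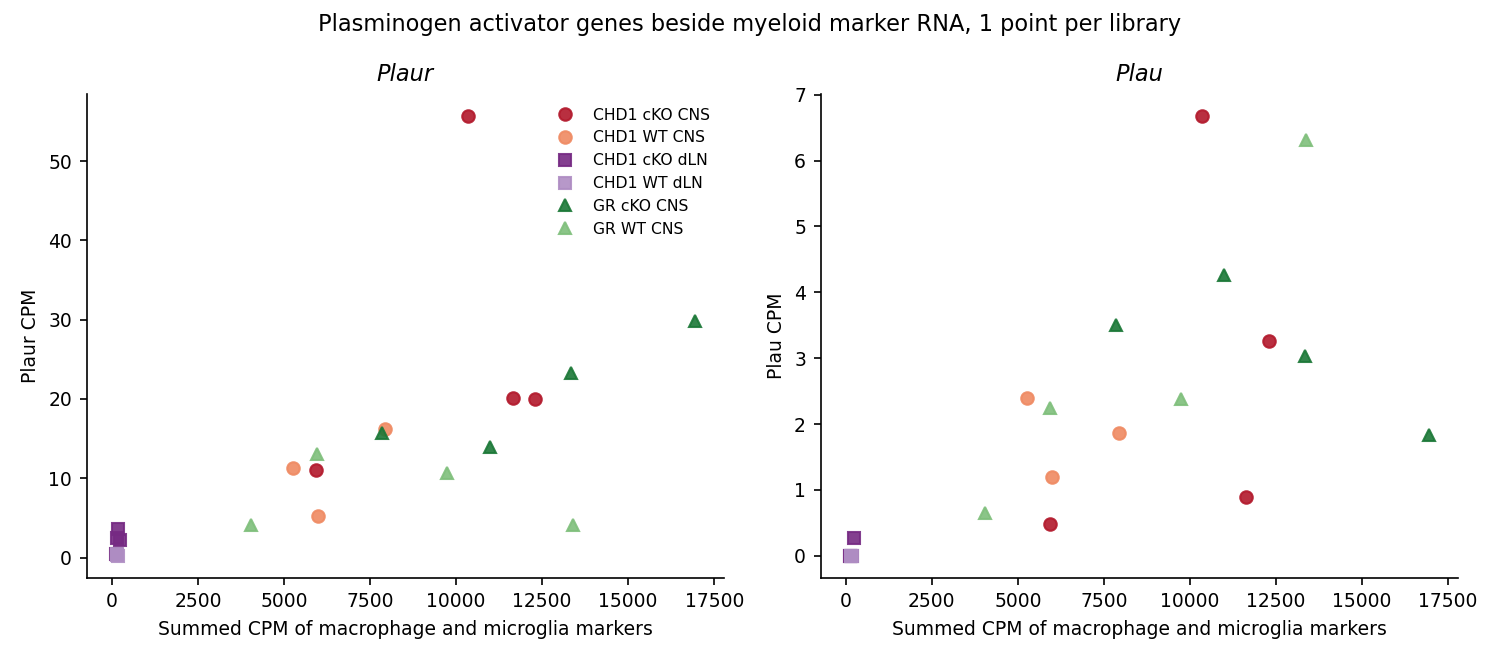
Plaur level (left) and Plau level (right), in CPM, against the summed CPM of 22 macrophage and microglia markers, with 1 point per recovered library and linear axes. The dLN libraries lie near the origin for both genes (marker sums of 108 to 225 CPM), and the CNS libraries spread from 4047 to 16942 CPM of marker sum.

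Between tissues, both genes of the plasminogen system were at higher levels in the CNS than in the dLN, while Ramp1 and Ramp3 differed less. Tissue cannot be told apart from count table here. Features annotated as repeats or ribosomal RNA made up 42.4 to 60.1% of counts in the CHD1 dLN libraries, against 13.3 to 33.2% in the CHD1 CNS libraries. CPM of the 2 tissues therefore stand on unlike totals, and this share cannot be told apart from tissue either. Plaur averaged 26.7 ± 19.8 CPM in CHD1 cKO CNS cells (SD, n = 4) and 2.17 ± 1.34 CPM in CHD1 cKO dLN cells (n = 4), with no overlap and a fitted log2 difference of 3.01 ± 0.54. In CHD1 WT cells it averaged 10.9 ± 5.46 CPM in the CNS (n = 3) and 0.343 ± 0.143 CPM in the dLN (n = 3), a difference of 4.53 ± 0.93. For Plau, 59 counts over the cKO CNS libraries stood beside 1 over the cKO dLN libraries, and 30 over the WT CNS libraries beside 0 over the WT dLN libraries, where 3 counts over the group would be 0.253 CPM. Ramp1 was 0.00 ± 0.40 different in cKO cells (-0.36 to 0.26 with single libraries left out) and 1.15 ± 0.47 higher in the CNS in WT cells, or 0.43 without WT CNS library 1. Ramp3 differed by 0.18 ± 0.45 in cKO (-0.10 without cKO CNS library 2 and 1.00 without cKO dLN library 1) and -0.27 ± 0.60 in WT cells, where its unscaled log2 ratio was 0.13. Groups without overlap and higher in the CNS made up 42.9% of all tested genes in cKO and 37.2% in WT cells, so such a separation is common in these tables. The share called by edgeR was 47.3% in cKO and 16.7% in WT cells. The 22 myeloid markers summed to 5922 to 12285 CPM in cKO CNS, against 108 to 225 CPM in cKO dLN, and 5272 to 7931 CPM in WT CNS, against 143 to 188 CPM in WT dLN, with 20 of 22 counted in cKO dLN, 21 of 22 in WT dLN and Tmem119 at 0 in both. Their part in these differences was not tested. In the cultured libraries, where Plaur reached 110.2 CPM, the same markers summed to 91.2 to 156 CPM. Per group, 11 to 14 of the 22 were counted. The sums were 123 to 156 CPM in KO with Dex and 104 to 124 CPM in KO control. They were 92.7 to 120 CPM in WT with Dex and 91.2 to 108 CPM in WT control. Lyz2, Itgam, C1qb, C1qc and Trem2 had 0 counts in all 16 libraries. Cd68, also on the list, had 256 counts in KO with Dex, 74 in KO control, 84 in WT with Dex and 75 in WT control. The part of these markers in the cultured Plaur values was not tested.

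Other genes of these lists were not called in the 3 comparisons of genotypes in recovered cells. Over the 4 lists of receptors, activators, plasminogen receptors and uPAR partners, edgeR called 0 of the 20 tested genes in CHD1 CNS cells, 0 of 14 in CHD1 dLN cells and 0 of 21 in GR CNS cells. Of all tested genes edgeR called 1 of 11157, 7 of 9803 and 0 of 11148 in the same order, so a list with no call is the usual case here. At an unadjusted p under 0.05 there were 3 genes of these 4 lists in CHD1 CNS, 6 in CHD1 dLN and 6 in GR CNS cells, and DESeq2 called 0, 2 and 2. Among all tested genes 1326, 1971 and 1226 had an unadjusted edgeR p under 0.05. The 2 called by DESeq2 in the dLN were Plgrkt (edgeR 0.60 ± 0.14, adjusted p = 0.0929) and Anxa2 (-0.84 ± 0.30, adjusted p = 0.162). Calcrl averaged 3.57 ± 1.74 CPM in CHD1 cKO CNS cells (SD, n = 4) and 7.23 ± 1.05 CPM in CHD1 WT CNS cells (n = 3), a difference that did not pass (-1.19 ± 0.36, edgeR adjusted p = 0.273). Ramp2 had 38 counts in the 4 cKO and 4 in the 3 WT libraries there and was not tested. Of the hypoxia-inducible genes edgeR called 0 of 23 tested in CHD1 CNS, 0 of 17 in CHD1 dLN and 0 of 22 in GR CNS cells (3, 8 and 2 at an unadjusted p under 0.05, with 1, 3 and 1 called by DESeq2). Of the glucocorticoid-inducible genes it called 0 of 15, 0 of 12 and 0 of 15 in the same order (4, 6 and 4 at an unadjusted p under 0.05, with 1, 2 and 3 called by DESeq2). Between tissues in cKO cells, Calcrl was called lower in the CNS (-2.08 ± 0.36, edgeR adjusted p = 3.49e-04), while in WT cells its groups overlapped (-0.30 ± 0.40, adjusted p = 0.673). Whether the genotypes differ in this was not tested. Serpine2 was called higher in the CNS in cKO cells (4.16 ± 0.37, edgeR adjusted p = 8.45e-07) and in WT cells (3.43 ± 0.45, adjusted p = 8.34e-05). In cKO cells 1 of 3 tested receptor genes was called higher and 2 lower, and 2 of 3 activator genes higher. There 3 of 4 plasminogen receptor genes were called higher, and of 10 uPAR partners 6 higher and 1 lower. In WT cells the calls were 0 of 3, 1 of 3 higher, 1 of 4 higher, and of 10 partners 4 higher and 1 lower. Over all tested genes edgeR called 47.3% in cKO and 16.7% in WT cells. The part of myeloid RNA was not tested.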

How the data were processed

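Expected counts per gene symbol were used from 4 tables deposited by the authors (38 libraries, 31053 symbols), held as whole numbers. RSEM 1.3.3 and the mm10 build are named per the submitters' processing notes, while the aligner, annotation release and rounding are not given in the sources used here. Per the labels' protocols, libraries came from 2000 sorted cells by a modified SMART-Seq2 protocol with 12 amplification cycles and no molecular identifiers, so intervals and floors cover counting error only. The labels give each library its group.

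From these counts, edgeR 4.0.16 (R 4.3.3) fitted quasi-likelihood models with TMM scaling after filterByExpr (at least 10 counts, 15 in total), on all groups of the table or tables compared. P-values were adjusted by Benjamini-Hochberg over all tested genes, with calls at 0.05. DESeq2 1.42.0, no filter, other scaling, the replicate block and leaving out each library were alternatives. The fitting code was tested on simulated data. CPM are on all counts of a library, and a count of 0 is read as up to 3 counts. GENCODE M21 held 30464 of the symbols (98.1%) and gave positions and exon lengths.

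The members and lists were chosen with earlier results of these data known. Genes named are the members, up to 4 called genes per list and comparison by smallest p (3 for the hypoxia and glucocorticoid lists), 8 pathway genes named in any case, and the 5 genes nearest each member among 9967 candidates. A further gene is not reported here. Genes called by DESeq2 alone, or whose direction depends on the scaling, were named after their values were seen. Same-numbered libraries did not vary together (correlations of -0.08 to 0.109), so numbers were not treated as pairs. Of 54 pairs of libraries within groups, none agreed within sampling noise (lowest chi-square per degree of freedom 2.88).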

Additional observations from a re-analysis of the deposited data

Results flagged for a closer look

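A library far from the others of its group was looked for by Dixon's test, where chance alone gives about 1 in 20. The test was run on 34 combinations of a member with a group of 4 libraries, and the members share these libraries. Such a library was found for Ramp1 in WT control library 2, at 2.11 CPM, and for Ramp3 in CHD1 cKO dLN library 1, at 19.3 CPM.

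The Dex response differed between IL-23R KO and WT cells, by the edgeR interaction term, for Serpine2 (-0.99 on the log2 scale), Anxa2 (1.29), S100a10 (0.39), Eno1 (0.69), Lrp1 (2.59), Itgav (1.92) and Egfr (-2.77). The call for Serpine2 was lost in 12 of the 16 fits that left out 1 library. From group mean CPM without scaling the difference was 0.04 for S100a10, 0.34 for Eno1, 0.95 for Anxa2, -1.35 for Serpine2, 2.21 for Lrp1, 1.57 for Itgav and -3.05 for Egfr. The repeat and mitochondrial shares of the KO libraries with Dex moved with these differences, and their part in them cannot be told apart from the group.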

How the results depend on the processing

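The Dex changes of the 4 tested members in culture, and their differences between genotypes, kept their direction under every alternative run, leaving out each library included, except Ramp1 in KO against WT without Dex (0.08), which was -0.19 without WT control 2. In recovered cells several values reversed in direction when 1 library was left out, and the cause was not tested. For CHD1 cKO against WT in the CNS these were Plau (0.43), which was -0.45 without cKO 2, and Ramp1 (-0.67), which was 0.055 without WT 1. For GR cKO against WT they were Ramp1 without cKO 7 (-0.25), cKO 9 (-0.10) or WT 4 (-0.15), Ramp3 without cKO 7 (0.09), WT 3 (0.05) or WT 4 (0.38), and Plau without WT 1 (-0.11). Between tissues in CHD1 cKO cells Ramp1 (0.00) was under 0 in 5 of 8 such fits and with the replicate block (-0.06), and Ramp3 (0.18) was under 0 without CNS 2 (-0.10), dLN 2 (-0.09) or dLN 4 (-0.04).

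DESeq2 called Plaur in GR cKO against WT (1.47) and gave 4.92 for Plau between CNS and dLN in CHD1 WT. Genes called for KO against WT without Dex numbered 74, or 122 by DESeq2 and 42 on the 8 libraries compared. CHD1 CNS had 1, or 181 by DESeq2, 72 with no filter and 3 with the replicate block. CHD1 dLN had 7, or 385 by DESeq2, 511 with no filter and 613 with the replicate block. GR had 0, or 122 by DESeq2 and 4 with no filter.

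With single libraries left out, genes called ranged from 531 to 829 (Dex in WT), 5421 to 5908 (Dex in KO), 3077 to 3643 (difference of responses), 26 to 77 (KO against WT without Dex), 4526 to 4727 (with Dex), 0 to 2 (CHD1 CNS), 0 to 990 (CHD1 dLN), 0 to 2 (GR), 1311 to 1496 (CNS against dLN in WT) and 4737 to 5570 (in cKO). Log2 fold changes ranged from -1.03 to 0.06 (Ramp1) and -0.45 to 0.79 (Plau) in CHD1 CNS, from -0.25 to 0.26 (Ramp1), -0.54 to 0.38 (Ramp3) and -0.11 to 0.94 (Plau) in GR, and between tissues from 0.43 to 1.45 (Ramp1, WT), -0.73 to -0.012 (Ramp3, WT), -0.36 to 0.26 (Ramp1, cKO), -0.10 to 1.00 (Ramp3, cKO), 5.72 to 6.28 (Plau, WT) and 4.20 to 6.53 (Plau, cKO). Depth limits Adm and Plau most, since 3 counts were 0.328 to 0.953 CPM per library.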

Other observations

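Irgc1, an immunity-related GTPase family gene, was among the 5 genes nearest Plaur in profile, and its position was looked up after its values were seen. It lies on chromosome 7 (24431922 to 24452297, mm10), on the opposite strand, 10187 bases from Plaur. It had 37, 29, 41 and 32 counts in the IL-23R KO libraries with Dex, against 1 count over the KO controls, and 9, 3, 26 and 7 counts in the WT libraries with Dex, against 5 counts over the WT controls. Of the other neighbours of Plaur, Smg9 and Zfp428 did not share this order, and Cadm4 had too few counts to be compared. Smg9 had 351 counts over the KO libraries with Dex and 291 over the KO controls, and 364 over the WT libraries with Dex and 300 over the WT controls. Cadm4 had 9, 0, 2 and 2 counts over the same groups in the same order, and Zfp428 had 10, 28, 36 and 42.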
